A study of Mus musculus with 6 samples.

Results

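Fibroblast growth factors (FGFs) are secreted proteins that bind receptor tyrosine kinases at the cell surface, with heparan sulfate chains as a further partner of the complex. A bound receptor recruits the adaptor Frs2 and drives the Ras-ERK kinase cascade, whose target genes include inhibitors of the same cascade. In the heart, FGFs are known for their part in vessel growth, in the epicardium and in the survival of cardiomyocytes. The 10 genes described here were taken by name from the deposited table of 50600 genes. They are the ligands *Fgf1*, *Fgf2*, *Fgf7*, *Fgf9*, *Fgf10* and *Fgf18*, the kinase receptors *Fgfr1*, *Fgfr2* and *Fgfr3*, and *Fgfrl1*, a receptor that lacks the kinase domain. The rule that selects them is their names, and they were chosen with earlier results of these data known.

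RNA was sequenced from the cardiac side population, heart cells that pump out the DNA dye Hoechst, sorted after cardiomyocytes and erythrocytes had been depleted. The groups were wild-type (wt) C57BL/6NRj mice and flt3L-/- mice, of the strain C57BL/6Flt3Ltml/mx on a C57BL/6N background, which carry a targeted gene for the ligand of the receptor Flt3 in all cells. All mice were untreated and 8 to 12 weeks of age. Each group has 3 libraries, and each library pools the cells of 4 mice. On each of 3 sorting dates 1 library of each group was made, so that the libraries form pairs 1, 2 and 3. Pairs 1 and 2 were sorted in the same month, and pair 3 in the following year. Total counts lay between 24370913 and 31145519 per library. Levels are given as CPM, the reads of a gene scaled to library size and corrected with TMM factors, and 3 counts, taken as the detection limit, are 0.109 to 0.127 CPM. This limit covers counting error only, since the reads carry no molecular identifiers. Reads of *Flt3l*, the targeted gene, were not reduced in libraries with the flt3L-/- label (12.4 to 14.4 CPM, against 8.67 to 12.1 CPM in wt), so the genotype is given below as the libraries are labelled.

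The libraries held more than 1 cell type. The summed CPM of 8 endothelial markers (*Pecam1*, *Cdh5* and others) lay between 7489 and 12013, and that of 8 fibroblast markers (*Dcn*, *Lum* and others) between 3624 and 17996. Sums of pericyte and smooth muscle markers lay between 274 and 900 CPM, of cardiomyocyte markers between 101 and 184, of lymphocyte and NK cell markers between 24.8 and 173, of macrophage markers between 18.0 and 136, and of mesothelial markers between 22.1 and 65.1. *Abcg2*, the dye pump that defines the side population, had 147 to 274 CPM. In such bulk RNA, fewer cells of a type and less RNA per cell cannot be told apart.

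The receptors *Fgfr3* and *Fgfr1* had the highest mean transcript levels of the 10 genes, and most FGF ligands were rare. Scaled to exon length as TPM, the mean over the 6 libraries was 80.1 for *Fgfr3* and 25.5 for *Fgfr1*. The next level was that of *Fgf2*, the basic FGF, with 9.78 TPM. It was followed by *Fgfrl1* (5.74 TPM), *Fgfr2* (5.62), *Fgf18* (2.58), *Fgf1* (1.99), *Fgf10* (0.762), *Fgf7* (0.736) and *Fgf9* (0.141). Of these neighbours, only *Fgfr3* and *Fgfr1* had ranges over the libraries that did not overlap: *Fgfr3* lay between 60.7 and 113 TPM and *Fgfr1* between 10.6 and 37.6 TPM. The order below *Fgfr1* was therefore not resolved between neighbours, and 5 genes changed place when the longest transcript was used as the length in place of all exons.

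The promoter windows of 3 members are shown. *Fgfr3* is the most abundant member. *Fgf7* and *Fgf10*, ligands that signal through the same epithelial splice form of *Fgfr2*, are among the rarest, and only *Fgf9* had a lower mean (0.141 TPM). Each sequence covers 200 bases that end 50 bases before the transcription start in RefSeq (GRCm38.p6), all on the plus strand, at chr5:33721474-33721673 for *Fgfr3*, chr2:126034408-126034607 for *Fgf7* and chr13:118714449-118714648 for *Fgf10*. Capitals mark GC boxes, the letters CCGCCC or, on the other strand, GGGCGG, which the transcription factor Sp1 is known to bind.
Fgfr3: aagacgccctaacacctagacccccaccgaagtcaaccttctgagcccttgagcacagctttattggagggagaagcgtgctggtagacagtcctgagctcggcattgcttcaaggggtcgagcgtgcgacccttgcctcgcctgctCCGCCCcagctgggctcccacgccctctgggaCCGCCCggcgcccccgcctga
Fgf7: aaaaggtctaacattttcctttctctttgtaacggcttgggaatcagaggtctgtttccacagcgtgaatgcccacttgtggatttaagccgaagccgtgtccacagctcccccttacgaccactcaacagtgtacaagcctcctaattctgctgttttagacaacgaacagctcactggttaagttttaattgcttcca
Fgf10: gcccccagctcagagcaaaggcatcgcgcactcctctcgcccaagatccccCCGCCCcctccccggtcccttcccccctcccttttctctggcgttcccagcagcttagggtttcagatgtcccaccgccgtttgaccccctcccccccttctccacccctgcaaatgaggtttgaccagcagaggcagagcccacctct

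The *Fgfr3* window held 2 GC boxes and 14 CpG dinucleotides at a GC content of 65.0%, and that of *Fgf10* held 1 GC box and 8 CpG dinucleotides at the same GC content. RefSeq gives *Fgfr3* a second, downstream start, whose window from 33722056 to 33722255 also held 2 GC boxes, with 20 CpG dinucleotides and 74.5% GC, and is not printed. That of *Fgf7* held 0 GC boxes and 6 CpG dinucleotides at a GC content of 45.5%. Of the 32851 promoters in the table, 24.6% held a GC box in the same 200 bases, and the median was 4 CpG dinucleotides and 51.5% GC. The letters TATAAA, searched on both strands of the same windows, were in 9.14% of all promoters and in none of these 3. The windows end before the transcription start, so the bases next to the start were not searched. The search therefore cannot tell whether a promoter has a TATA box there. Promoters of 8 of the 10 members were in the table. The windows of members not printed held 3 GC boxes for *Fgfrl1* (73% GC) and 1 for *Fgf18* (77.5% GC). Those of *Fgf2* (56% GC), *Fgfr2* (44% GC) and *Fgf9* (45% GC) held 0. GC boxes and GC content thus did not follow the order of levels. The letters describe the windows only, and binding was not measured.

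**Figure D1:**
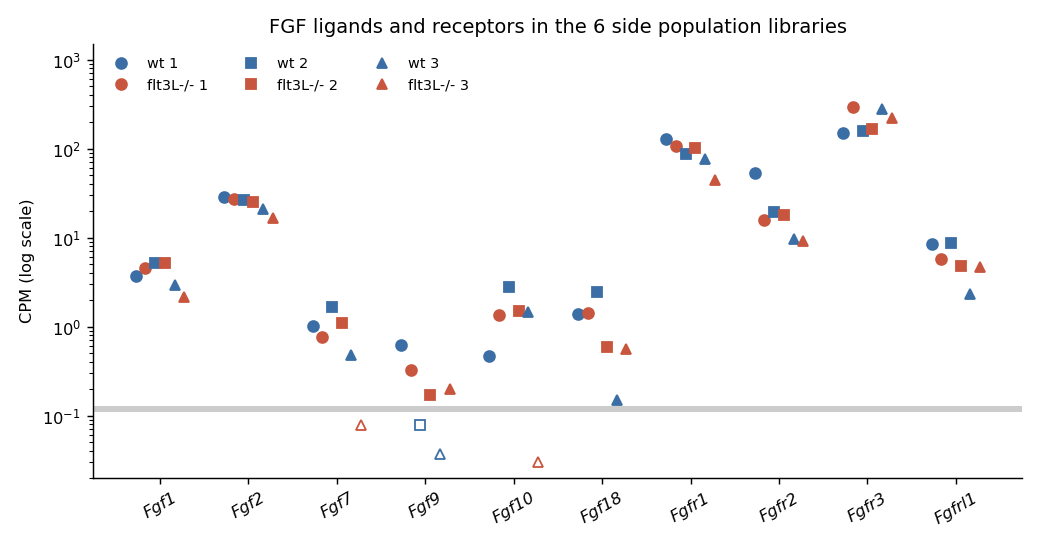
CPM of the 10 FGF genes on a log axis in each of the 6 libraries, with wt in blue, libraries with the flt3L-/- label in red, and circles, squares and triangles for pairs 1, 2 and 3. The grey band is the level of 3 counts (0.109 to 0.127 CPM), open symbols are libraries with 3 or fewer reads, and the open triangle of *Fgf10*, which had 0 reads, is drawn at the lower edge. Red and blue symbols overlap for all 10 genes.

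No FGF gene passed the test between the groups, and the libraries of the groups overlapped for each of the 10. Log2 fold changes, given as libraries with the flt3L-/- label against wt, and their p-values come from edgeR's quasi-likelihood test with the sorting date as covariate, and p-values were adjusted by the Benjamini-Hochberg method over all 13475 genes tested. Of the 10 members, 9 passed the filter of more than 1 CPM in at least 2 libraries, and *Fgf9* did not. Of these 9 members, 0 had an adjusted p under 0.05 in edgeR, beside 0 genes (0%) among all genes tested. The authors, with the same kind of edgeR test, reported genes at an adjusted p under 0.05, none of them an FGF member. The fit here did not recover those genes, and the reason was not tested. At an unadjusted p under 0.05 the count was also 0, beside 484 (3.59%) of all genes, of which 335 (2.49%) were lower and 149 (1.11%) were higher, while DESeq2 called 0 of the members and 21 genes in all. The smallest unadjusted p among the members was 0.173, for *Fgfr2*. The fitted value was below 0 for 8 members and above 0 for *Fgfr3*, with a median of -0.19, beside a median of -0.00 over all genes tested, of which 6742 were below 0 and 6733 above. *Fgf2*, *Fgf7* and *Fgfr2* were lower in the library with the flt3L-/- label of all 3 pairs, as were 1553 (11.5%) of all genes tested. In none of the 10 members was each library with the flt3L-/- label below each wt library, which was so for 394 genes (2.92%), or above each of them (475 genes, 3.53%).

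Among the ligands, *Fgf2* (ENSMUSG00000037225), a growth factor for endothelial cells and fibroblasts, spans bases 37348346 to 37410108 of chromosome 3 (GRCm38). The wt libraries of pairs 1, 2 and 3 had 28.3, 26.4 and 21.1 CPM of it, against 27.3, 24.8 and 16.7 CPM in libraries with the flt3L-/- label. Both libraries of pair 3 lay below the other 4, and within each pair the difference was small, at -0.05, -0.09 and -0.33 on the log2 scale. The fitted log2 fold change was -0.16 (standard error, SE, 0.15, adjusted p = 0.973 in edgeR), a lower value in 3 of 3 pairs, and -0.07 without pair 3. *Nudt6*, which lies antisense to *Fgf2* and shares 13.2% of its exon bases, had 215 to 232 reads per library. Because the libraries do not keep strand, reads in the shared bases cannot be assigned to 1 of these genes. *Fgf2* had the steadiest level of the 10 members, with a highest library of 28.3 CPM and a lowest of 16.7.

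*Fgf1*, the acidic FGF, which binds all FGF receptors, had 3.73, 5.20 and 2.91 CPM in the wt libraries of pairs 1, 2 and 3. Those labelled flt3L-/- had 4.59, 5.13 and 2.14 CPM. The libraries of pair 2 were highest and those of pair 3 lowest in both groups, and the differences within pairs had both signs. In edgeR's fit the log2 fold change was -0.05 (SE 0.30, adjusted p = 0.990 in edgeR).

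*Fgf7* and *Fgf10* are mesenchymal ligands that act on neighbouring epithelial cells. *Fgf7* (chromosome 2, from 126034658 to 126091185) had 26, 43 and 13 reads in the wt libraries of pairs 1, 2 and 3, which are 1.01, 1.67 and 0.484 CPM. In libraries with the flt3L-/- label it had 21, 26 and 2 reads, which are 0.765, 1.10 and 0.0792 CPM. Each pair was lower in the library with the flt3L-/- label, with differences of -0.37, -0.56 and -1.84 on the log2 scale, and the library with the flt3L-/- label of pair 3 was under the detection limit. The log2 difference fitted over all pairs was -0.97 (SE 0.62, adjusted p = 0.973 in edgeR), and it was -0.50 without pair 3. *Fgf10* (chromosome 13, from 118669791 to 118792115) had 12, 71 and 39 reads in wt, or 0.467, 2.75 and 1.45 CPM. Reads numbered 37, 35 and 0 in libraries with the flt3L-/- label, or 1.35, 1.49 and 0 CPM. *Fgf10* was thus higher in pair 1 and lower in pairs 2 and 3, and its highest wt library and its library without reads were those in which *Fgf7* was also highest and lowest. The fitted log2 fold change of *Fgf10* was -1.06 (SE 1.45, adjusted p = 0.974 in edgeR), and 0.23 without pair 3.

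*Fgf18*, a ligand of cartilage, lung and vessel development, had 1.40, 2.44 and 0.149 CPM in wt, against 1.42, 0.594 and 0.554 CPM in those labelled flt3L-/-. Pair 1 was level, pair 2 was lower and pair 3 higher in the library with the flt3L-/- label, and the wt library of pair 3 had only 4 reads. Fitted over the pairs, the log2 fold change was -0.19 (SE 0.88, adjusted p = 0.989 in edgeR), and it turned to 0.76 without pair 2. *Fgf9*, a ligand of epicardium and mesothelium, had 16, 2 and 1 reads in wt and 9, 4 and 5 reads in libraries with the flt3L-/- label. Its wt libraries of pairs 2 and 3 were under the detection limit of 3 counts, and with so few reads a difference in *Fgf9* was not resolved. Without a filter its log2 fold change was 0.55 (SE 1.12, adjusted p = 0.988 in edgeR).

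The receptors carried most of the FGF reads. *Fgfr3* (ENSMUSG00000054252), a kinase receptor known for its part in bone growth, lies on chromosome 5 from 33721674 to 33737068. Its level was 152, 159 and 282 CPM in wt of pairs 1, 2 and 3, against 293, 168 and 218 CPM in libraries with the flt3L-/- label. High values thus occurred in both groups, in the library with the flt3L-/- label of pair 1 and in the wt library of pair 3, and the differences within pairs were 0.95, 0.08 and -0.37 on the log2 scale. The fitted log2 fold change was 0.22 (SE 0.28, adjusted p = 0.974 in edgeR), and it turned to -0.14 without pair 1. An antisense gene, G630022F23Rik, shares 13.9% of the exon bases of *Fgfr3* and had 218 to 438 reads, highest in the library where *Fgfr3* was highest. The pseudogene *Fgfr3-ps* had 21 to 64 reads, and reads that map equally well to both genes were placed at random by the authors.

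*Fgfr1* (ENSMUSG00000031565), the receptor through which *Fgf2* chiefly acts on mesenchymal cells, lies on chromosome 8 from 25513654 to 25575718. It had 129, 87.9 and 76.9 CPM in wt and 107, 101 and 44.0 CPM in libraries with the flt3L-/- label. The highest library was wt of pair 1 and the lowest that labelled flt3L-/- of pair 3, with differences within pairs of -0.27, 0.20 and -0.80 on the log2 scale. In edgeR's fit the log2 fold change was -0.29 (SE 0.22, adjusted p = 0.973 in edgeR), and it was -0.04 without pair 3 and -0.56 without pair 2. The summed CPM of fibroblast markers was 17996, 11070 and 7566 in wt and 7724, 11587 and 3624 in libraries with the flt3L-/- label, so it too was highest in wt of pair 1 and lowest in the library with the flt3L-/- label of pair 3. All 8 fibroblast markers had fitted values below 0 (median -0.75), 3 of them at an unadjusted p under 0.05 (2.49% of all genes tested were lower at this threshold), and their part in the *Fgfr1* values was not tested.

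*Fgfr2*, whose splice forms bind different ligands in epithelium and mesenchyme, had 53.1, 19.5 and 9.53 CPM in wt and 15.7, 17.9 and 9.18 CPM in libraries with the flt3L-/- label. A single library, wt of pair 1, lay above all others, and pairs 2 and 3 were nearly level, with differences of -0.12 and -0.05 on the log2 scale against -1.76 in pair 1. The log2 difference fitted over all pairs was -0.64 (SE 0.40, adjusted p = 0.973 in edgeR), and -0.09 without pair 1. The same wt library had the highest sum of fibroblast markers and of pericyte and smooth muscle markers (900 CPM, against 274 to 553 CPM in the other 5), whose part in this value was not tested. The annotation gives *Fgfr2* 3.04% of its exon bases in common with *Ctbp2*.

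*Fgfrl1*, which binds FGFs without signalling through a kinase, had 8.40, 8.73 and 2.35 CPM in wt and 5.72, 4.84 and 4.67 CPM in libraries with the flt3L-/- label. The 3 wt libraries spanned a wider range than those labelled flt3L-/-, and pairs 1 and 2 were lower while pair 3 was higher in the latter. Fitted over the pairs, the log2 fold change was -0.16 (SE 0.45, adjusted p = 0.981 in edgeR), and it turned to 0.06 without pair 1 and to 0.19 without pair 2.

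**Figure D2:**
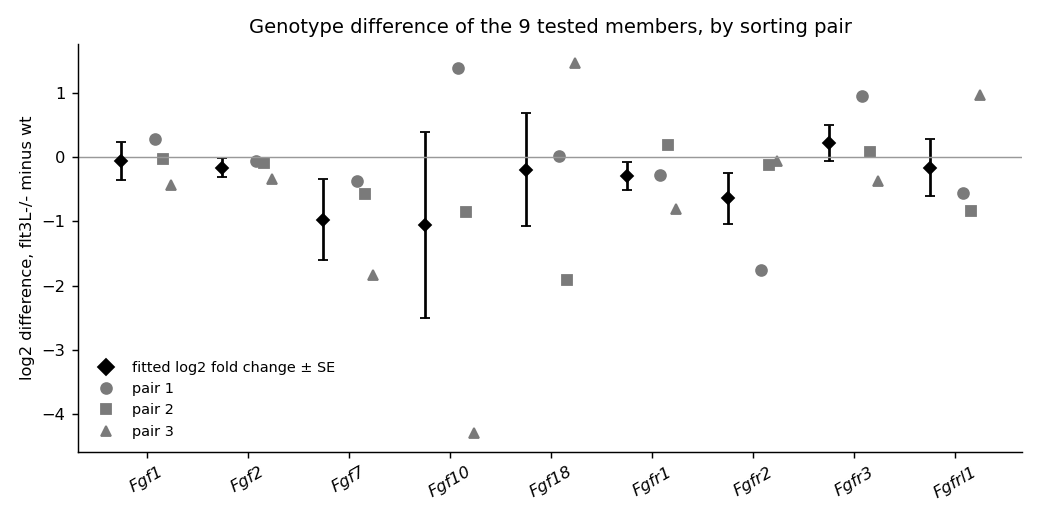
Log2 difference of the 9 tested FGF genes, libraries with the flt3L-/- label minus wt, within pair 1 (circles), pair 2 (squares) and pair 3 (triangles), beside the fitted log2 fold change with its standard error (black diamonds, n = 3 pairs). The pair differences use a prior count of 2, which sets the size of the lowest triangle, that of *Fgf10* in a library with 0 reads. The pairs of *Fgf2*, *Fgf7* and *Fgfr2* all lie below 0, and those of the other 6 genes have both signs.

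The make-up of the kinase receptors differed widely between libraries of the same group. Per exon length, *Fgfr3* made up 52.6%, 66.3% and 81.3% of the transcripts of the 4 kinase receptors in the wt libraries of pairs 1, 2 and 3. In libraries with the flt3L-/- label its share was 76.4%, 65.8% and 85.0%. *Fgfr3* was thus the main receptor in every library, with its lowest share in wt of pair 1 and its highest shares in pair 3. The ratio of *Fgfr3* to *Fgfr1* per length was 1.62, 2.49 and 5.05 in wt and 3.76, 2.30 and 6.84 in libraries with the flt3L-/- label.

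Counted in reads, the share of *Fgfr1* among the 4 receptors was 38.4% (95% Clopper-Pearson interval 37.4% to 39.4%), 32.8% (31.7% to 34.0%) and 20.8% (20.03% to 21.6%) in wt. It was 25.8% (25.0% to 26.6%), 35.1% (33.9% to 36.2%) and 16.2% (15.3% to 17.1%) in libraries with the flt3L-/- label. These intervals cover counting error only, and the libraries of 1 group differed by far more than their widths. The share was 30.7% ± 8.98 (SD, n = 3) in wt and 25.7% ± 9.44 (SD, n = 3) in libraries with the flt3L-/- label, a mean difference of -5.00 percentage points, which was -1.18 without pair 1 and -8.62 without pair 2. In an exact two-sided permutation test over the 3 pairs p was 0.5, and the smallest p that 3 pairs allow is 0.25. The summed CPM of endothelial markers was 7489, 9825 and 9835 in wt and 9869, 7973 and 12013 in libraries with the flt3L-/- label. It was lowest in wt of pair 1, where the share of *Fgfr3* was lowest, and highest in the library with the flt3L-/- label of pair 3, where that share was highest. Not all markers of the list followed their sum. *Cdh5* had 256 CPM in wt of pair 1 and 223 CPM, its lowest value, in the library with the flt3L-/- label of pair 3. *Kdr* had 3385 and 3119 CPM in these libraries. The other markers were higher in the latter, with 1660 and 4690 CPM of *Fabp4*. The part of cell type in these shares was not tested.

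**Figure D3:**
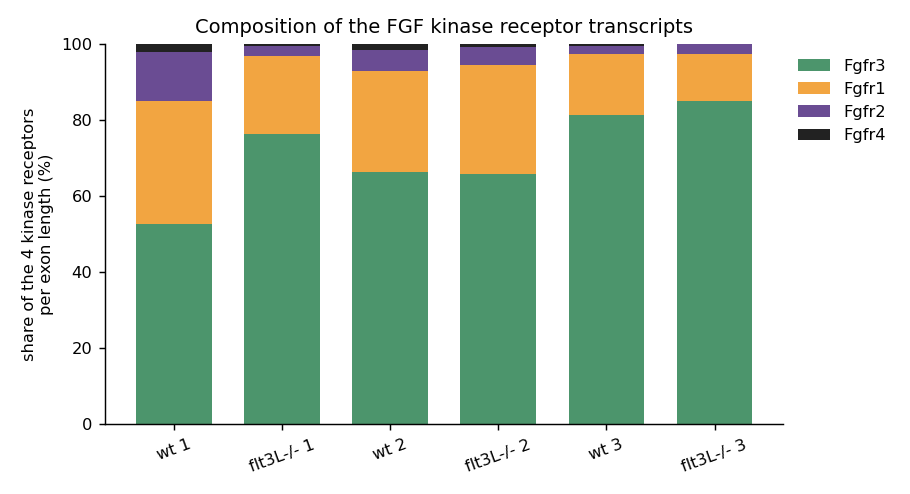
Share of each of the 4 FGF kinase receptors in their summed counts per exon length, in percent, with 1 stacked bar per library. *Fgfr3* (green) fills 52.6% to 85.0% of each bar, *Fgfr1* (orange) 12.4% to 32.5%, *Fgfr2* (purple) 1.91% to 12.8% and *Fgfr4* (black) at most 2.13%.

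**Figure D4:**
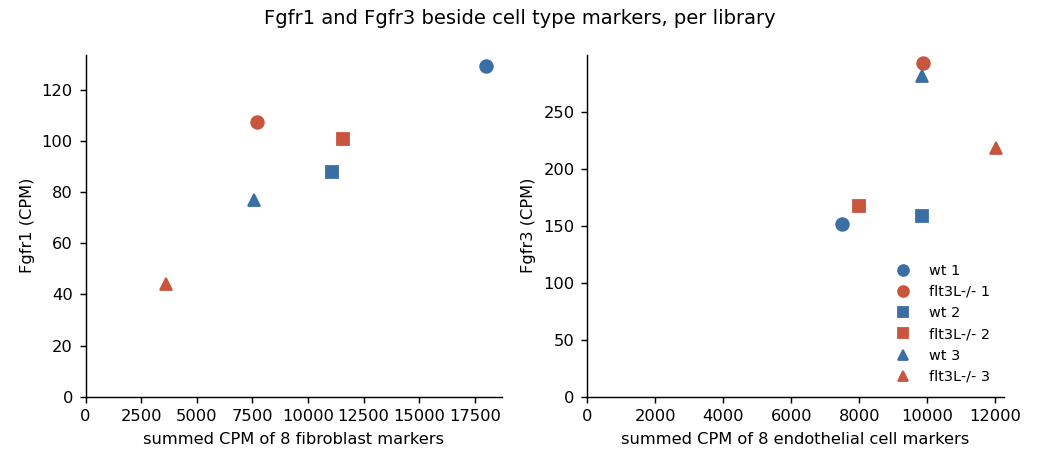
*Fgfr1* in CPM against the summed CPM of 8 fibroblast markers (left), and *Fgfr3* in CPM against the summed CPM of 8 endothelial markers (right), with 1 symbol per library. *Fgfr1* is highest at the highest fibroblast sum (17996) and lowest at the lowest (3624), while *Fgfr3* is highest, at 293 CPM, at an endothelial sum of 9869.

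The genes with the level pattern most like that of *Fgfr3* over the 6 libraries were *Unc119b*, *Vsig2* and *Fas*. Their root mean square differences from *Fgfr3*, in log2 CPM after subtracting each gene's mean, were 0.071, 0.090 and 0.111, where *Fgfr3* itself varied by 0.386. *Unc119b*, for example, had 203, 218 and 334 CPM in wt and 376, 209 and 291 CPM in libraries with the flt3L-/- label, with its highest library the same as that of *Fgfr3*. For *Fgf2* they were *Prrc1*, *Trrap* and *Mansc1*, with differences of 0.060, 0.060 and 0.064, where *Fgf2* varied by 0.262. All of these values share the same 6 libraries and their depth.

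Of the receptors and co-receptors outside the 10 members, *Fgfr4* passed the filter and was low in every library with the flt3L-/- label. It passed through wt only, with each wt library above 1 CPM and each library with the flt3L-/- label below it. Its test and the comparison with all genes tested thus depend on wt being high. *Fgfr4*, the receptor for the bile acid regulator Fgf15 in liver, had 78, 45 and 30 reads in wt, which are 3.03, 1.75 and 1.12 CPM. It had 23, 20 and 4 reads in libraries with the flt3L-/- label, or 0.838, 0.849 and 0.158 CPM. Each library with the flt3L-/- label was below each wt library, as was so for 2.92% of all genes tested. The log2 fold change was -1.81 (SE 0.53, unadjusted p = 0.0201, adjusted p = 0.973 in edgeR), a lower value in 3 of 3 pairs that did not pass the adjustment. Without the sorting date in the model the unadjusted p was 0.0502, and it was 0.0872 without pair 1 and 0.0535 without pair 3. *Kl* and *Klb*, the co-receptors of the endocrine FGFs, had few reads, in some libraries at or under the detection limit, and did not pass the filter. *Kl*, named here after its values were seen, had 0, 3 and 0 reads in wt and 4, 13 and 16 reads in libraries with the flt3L-/- label, and an unadjusted p of 0.0364 (adjusted p = 0.984) in edgeR without a filter.

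Of the 16 other FGF ligands listed, 3 passed the filter, and none of these had an unadjusted p under 0.05. These 3, *Fgf11*, *Fgf13* and *Fgf14*, are intracellular relatives that are not secreted and act on ion channels. *Fgf13* had 2.18 to 4.77 CPM and *Fgf11* 1.61 to 3.90 CPM, with log2 fold changes of -0.25 and 0.28, and *Fgf14* had a value of -0.74 (unadjusted p = 0.234 in edgeR). Of 6 FGF-binding and receptor partner genes, 4 passed the filter, and their median was -0.09. *Flrt2*, a membrane protein that can bind FGF receptors, had 34.0, 25.6 and 20.6 CPM in wt and 23.9, 19.5 and 9.50 CPM in libraries with the flt3L-/- label. Its log2 fold change was -0.67 (SE 0.20, unadjusted p = 0.0234, adjusted p = 0.973 in edgeR), lower in 3 of 3 pairs. *Fgfr1op2*, named for a fusion with *Fgfr1*, had a value of 0.10.

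The heparan sulfate proteoglycans, which hold FGFs near their receptors, had fitted values below 0 for the genes tested, none of which passed the adjusted threshold. Of the 12 genes 11 passed the filter, and these 11 had fitted values below 0, with a median of -0.50, beside -0.00 over all genes tested. Of the 11, 5 were lower in all 3 pairs, beside 11.5% of all genes tested, while *Sdc3* and *Gpc2* were higher in 2 of 3 pairs. Of these genes, 3 reached an unadjusted p under 0.05, beside 2.49% of all genes in this direction, and 0 had an adjusted p under 0.05 in edgeR, where the smallest was 0.973, or in DESeq2, where it was 0.398. *Gpc1*, a membrane-anchored glypican, had 18.6, 16.8 and 12.7 CPM in wt and 11.1, 10.3 and 4.35 CPM in libraries with the flt3L-/- label, so that the groups did not overlap. It was the only 1 of the 12 listed proteoglycans with such a separation, beside 2.92% of all genes tested in this direction. Its log2 fold change was -0.99 (SE 0.25, unadjusted p = 0.0115, adjusted p = 0.973 in edgeR). *Ankmy1* lies antisense to *Gpc1* and shares 18.9% of its exon bases, where unstranded reads cannot be assigned to 1 of these genes.

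*Gpc6*, another glypican, had 122, 73.3 and 51.8 CPM in wt and 58.9, 68.3 and 18.5 CPM in libraries with the flt3L-/- label (log2 fold change -0.88, unadjusted p = 0.0327). The third gene was the syndecan *Sdc1*, at -0.51 (unadjusted p = 0.0455). *Hspg2*, the basement membrane proteoglycan perlecan, had 166 to 356 CPM and a value of -0.20. *Sdc3* had 583, 586 and 83.0 CPM in wt and 720, 166 and 104 CPM in libraries with the flt3L-/- label, so its level separated 3 libraries from the other 3 across the genotypes and its value of -0.37 was not resolved (unadjusted p = 0.491). The list's median was -0.63, -0.10 and -0.84 in pairs 1, 2 and 3, and that of the fibroblast markers was -0.96, 0.02 and -1.42 in the same pairs. Without pair 2, 7 of 10 tested proteoglycans were lower, 6 of them at an unadjusted p under 0.05, and the median was -0.81. In that fit 747 of all 13111 genes tested were lower at this threshold. Without pair 1, 2 of 11 proteoglycans were lower at this threshold, beside 262 of 13291 genes. Without pair 3 it was 1 of 10, beside 141 of 13304 genes. The part of fibroblast RNA in these values was not tested.

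Of the 14 genes that make or edit heparan sulfate, 13 passed the filter, with 9 below and 4 above 0 and a median of -0.14. *Hs6st2*, which adds 6-O-sulfate groups that help FGFs and their receptors to bind, had 11.5, 8.54 and 7.08 CPM in wt and 5.97, 6.58 and 2.81 CPM in libraries with the flt3L-/- label. These values did not overlap, as was so for 2 of the 14 listed genes and for 2.92% of all genes tested in this direction. The log2 fold change of *Hs6st2* was -0.88 (SE 0.29, unadjusted p = 0.0291, adjusted p = 0.973 in edgeR). *Sulf1* and *Sulf2*, which remove such sulfates outside the cell, had values of -0.41 and -0.71 with unadjusted p of 0.127 and 0.109. *Ext2*, a polymerase of the chain, was the most abundant gene of this list and had 153 to 186 CPM in all libraries, with a value of 0.05.

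Downstream of the receptors, the genes of the cascade had values on both sides of 0. The 20 adaptor and kinase genes, all of which passed the filter, had 10 values below and 10 above 0, with a median of 0.01. *Frs2*, the adaptor that FGF receptors phosphorylate directly, had 42.8, 32.0 and 28.9 CPM in wt and 36.6, 22.5 and 20.7 CPM in libraries with the flt3L-/- label. Its log2 fold change was -0.40 (SE 0.15, unadjusted p = 0.0421, adjusted p = 0.973 in edgeR), lower in 3 of 3 pairs, and it was the sole gene of the 20 at an unadjusted p under 0.05, beside 3.59% of all genes tested. In DESeq2 the smallest p of the list was 0.0605, and without the sorting date in the model it was 0.0994. *Gab1*, the docking protein that joins Frs2 to phosphoinositide 3-kinase, had a value of -0.32 (unadjusted p = 0.0838). *Crk* and *Plcg1*, the most abundant genes of the list, had values of 0.25 and -0.08.

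Of the feedback inhibitors of FGF-ERK signalling, 11 genes were tested, with 6 below and 5 above 0 and a median of -0.01. *Dusp6*, the ERK phosphatase that FGF signalling induces in many tissues, averaged 288 ± 26.8 CPM (SD, n = 3) for wt, against 314 ± 43.0 CPM (SD, n = 3) for libraries with the flt3L-/- label, a log2 fold change of 0.12. *Spry4* had 76.6 to 113 CPM and a value of -0.11, and the smallest p of the list was that of *Spry2* (log2 fold change -0.59, unadjusted p = 0.112), followed by *Dusp4* (-0.33, unadjusted p = 0.230). Of the 8 transcriptional targets, 7 were tested, with 4 below and 3 above 0 and a median of -0.02. In neither list did a gene reach an unadjusted p under 0.05, beside 3.59% of all genes tested. Without pair 2 there were 2 such targets, both lower (smallest p 0.00514 in edgeR), beside 747 lower genes of 13111 tested at this threshold. Without pair 1 and without pair 3 there were 0 such targets. The immediate early genes *Egr1* and *Fos* had values of -0.02 and 0.02 and together took 0.795% to 1.11% of all reads. *Myc*, at 269 ± 184 CPM in wt and 176 ± 80.2 CPM in libraries with the flt3L-/- label (SD, n = 3 each), had the smallest p of the targets, at 0.123. *Fosl1*, a partner of Jun proteins in AP-1, had 71.3, 55.1 and 60.0 CPM in wt, against 73.0, 63.9 and 136 CPM in libraries with the flt3L-/- label, a log2 fold change of 0.47 (unadjusted p = 0.134) with a higher value in 3 of 3 pairs. *Ccdc85b* lies antisense to *Fosl1* and shares 57.2% of its exon bases, where unstranded reads cannot be assigned to 1 of these genes.

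**Figure D5:**
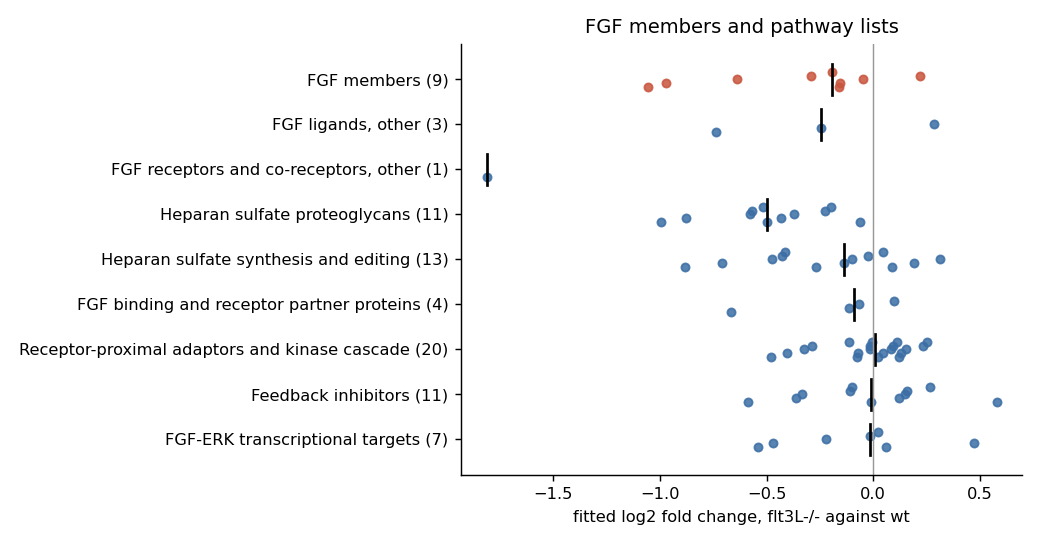
Fitted log2 fold change, libraries with the flt3L-/- label against wt, of each tested gene (1 point each) of the FGF members (red) and of 8 pathway lists (blue), with the number of tested genes after each name and the median as a black line. The medians are -0.19 for the members and -0.50 for the heparan sulfate proteoglycans, and they lie within 0.02 of 0 for the cascade, feedback and target lists; the point at -1.81 is *Fgfr4*.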

How the data were processed

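RNA of the cardiac side population was sequenced from 3 wt libraries and 3 libraries labelled flt3L-/-, as unstranded single reads from SMART-Seq v4 libraries. The deposited values are raw counts per gene. The authors mapped reads to mm10 with STAR 2.5.2a, allowed at most 10 hits per read with random placement among equally good ones, and counted the reads starting in exons of Ensembl release 88 with QuasR 1.18.0 (qCount).

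Protein-coding genes above 1 CPM in 2 or more libraries were tested in edgeR 4.0.16 on R 4.3.3 (glmQLFit and glmQLFTest with legacy = TRUE, TMM factors) for genotype, with the sorting date as a covariate. The Benjamini-Hochberg adjustment ran over all 13475 genes. Standard errors were derived from the F statistic. The pairs come from the sorting dates; after removal of the group means, libraries of the same date correlated across genes at 0.180, 0.104 and 0.116, and wt with flt3L-/- libraries of different dates at -0.354 to 0.247. Exon lengths and shared exon bases were taken from GENCODE (GRCm38), promoters from RefSeq. Exact intervals and permutation tests used scipy 1.17.1. The model was tested on simulated data. TPM were computed from the counts per kilobase of exons.

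The members and lists were chosen with earlier results of these data known. By the rule for named genes, the text names all members, and for each list the 2 genes of highest mean CPM and those 2 whose p was smallest, and for *Fgfr3* and *Fgf2* the 3 genes with the most like pattern; genes beyond it, such as *Kl* and *Sdc1*, were chosen after their values were seen. *Spry3* was not analysed here. Alternatives were 3 other normalizations, DESeq2 1.42.0, limma-voom (limma 3.58.1), legacy = FALSE, robust dispersions, 3 other filters, all biotypes, no replicate block, and each pair left out.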

Additional observations from a re-analysis of the deposited data

How the results depend on the processing

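Of 285 values under the alternatives, 272 kept their direction or stayed within the spread, 6 moved and 7 reversed, and no FGF member passed an adjusted p under 0.05 under any of the alternatives. DESeq2 called 21 genes in place of 0 (6 higher, 15 lower). The median of the receptors and co-receptors outside the members, -1.81 for *Fgfr4* alone, was 0.11 without a filter and 0.89 with filterByExpr, where *Kl* or *Klb* were also tested. With the longest transcript as length, 5 members changed place in the order of levels. When 1 pair was left out, the median of the heparan sulfate synthesis genes lay between -0.28 and -0.14 and that of the feedback inhibitors between -0.22 and 0.13. Without the replicate block, *Fgf1* had a value of 0.0030 and the genes at an unadjusted p under 0.05 were 93 higher and 169 lower, against 149 and 335 with it. When 1 pair was left out, the log2 fold change lay between -0.14 (without pair 1) and 0.52 for *Fgfr3*, between -0.70 and 0.19 for *Fgfrl1* (0.056 without pair 1 and 0.19 without pair 2), between -0.97 and 0.76 (without pair 2) for *Fgf18*, between -0.23 and 0.14 (without pair 3) for *Fgf1*, and between -2.49 and 0.23 (without pair 3) for *Fgf10*. Each of these 7 reversals was of a value within 1 standard error of 0 in the fit with all pairs, and the cause was not tested. Scaled by library size only, 56.8% of all genes were below 0, where 6742 of 13475 were with TMM factors, and the members kept 8 values below 0 and 1 above. Depth limits *Fgf7*, *Fgf9*, *Fgf10* and *Fgf18*, which had under 80 reads in every library.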
